A study of Bos taurus with 10 samples.

Results

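The proteasome is the barrel-shaped protease that breaks down most ubiquitin-tagged proteins of the cell, and its genes were compared between intramuscular and subcutaneous fat of cattle. The genes were those whose symbol begins with PSMA, PSMB, PSMC, PSMD, PSME, PSMF or PSMG followed by a digit, plus POMP. This rule used symbols alone, but it was chosen with earlier results of these data known. The rule matched 48 of the 12674 genes listed, of which 47 encode proteasome subunits, activators, an inhibitor or assembly factors. The remaining one, PSMC3IP, encodes a cofactor of meiotic recombination and matched by name alone. All 48 passed the filter on low counts, and PSMA8, PSMB11 and PSME3IP1 were not analysed here. RNA sequencing of 5 adult female Angus-cross heifers gave 1 library per animal from each depot, 5 in all from intramuscular fat (the marbling between muscle fibres) and 5 from subcutaneous fat. No treatment, genetic change or age in years is named for either group. The stated purpose of the series was to find what may underlie the later and slower growth of marbling fat.

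The 20S core of the proteasome is a stack of 4 rings, with outer rings of alpha subunits and inner rings of beta subunits, 3 of which (PSMB5, PSMB6, PSMB7) carry the constitutive protease sites. Interferon signalling and blood-derived cells bring in PSMB8, PSMB9 and PSMB10 in their place, which makes the immunoproteasome and shifts the peptides it yields for display on MHC class I. The 19S cap, built of PSMC ATPases and PSMD subunits, unfolds tagged proteins and feeds them to the core, and in brown fat cells the core genes are held up by the transcription factor NFE2L1. Sequences of the genes and proteins are not printed here.

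Counts over the listed genes totalled 9392739 to 14836808 in intramuscular and 13776094 to 17685678 in subcutaneous libraries. Levels are given as CPM, the count of a gene relative to its scaled library size. Adipocyte markers (13 of 14 listed genes) made up 0.763% to 2.12% of counts in intramuscular and 2.26% to 2.73% in subcutaneous libraries. Transcripts of striated muscle (13 of 28 listed genes had values) made up 0.0758% to 0.376% in intramuscular and 0.0120% to 0.0370% in subcutaneous libraries, without overlap, and 4 of the 13 were at 0 in all subcutaneous libraries. Subcutaneous replicates 3 and 5 stood apart from the other 8 libraries: in them, genes with models under 1200 bases (1343 genes) had median log2 levels of 0.26 and 0.44 relative to the subcutaneous mean, against -0.31 to -0.15 elsewhere. Results that rest on these 2 libraries are given with and without them. Libraries with the same number in both depots were taken as the same animal, and p-values measure the spread between these libraries.

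Among the 48 genes, 1 was lower in intramuscular fat (PSMB8) and none was higher, by edgeR's quasi-likelihood test at an adjusted p under 0.05. This was 2.08% of them, against 12.2% of the 12521 genes tested (5.49% lower, 6.75% higher). DESeq2 called 5 lower and 1 higher, as did the authors' deposited table, against 9.24% and 10.8% of its genes. At an unadjusted edgeR p under 0.05, 12 were lower and 1 was higher, against 16.2% and 14.5% of all genes. The log2 fold change of intramuscular over subcutaneous fat was negative in 41 of the 48, against 52.9% of all genes, and its median was -0.33, against -0.04. With each library's trend with gene length taken out, a fit chosen after seeing the data, 33 of the 48 were negative. The median was then -0.14, against -0.01 for all genes. In bulk tissue, fewer cells of a type and less RNA per cell cannot be told apart. In the main fit, the 3 immune catalytic subunits had the lowest median by role (-0.80), and the 14 constitutive core subunits came next (-0.50). The 5 core assembly chaperones followed (-0.38), and the 17 cap subunits lay near all genes (-0.13). With the striated muscle share as a covariate these medians turned, and 18 of the 48 genes were negative. The medians were then 0.0152 for the immune subunits, 0.0356 for the core, 0.00286 for the core chaperones and 0.0871 for the cap. That fit called only 0.016% of all genes lower and 0.343% higher. The share does not overlap between depots, so the share and the depot cannot be told apart.

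**Figure D1:**
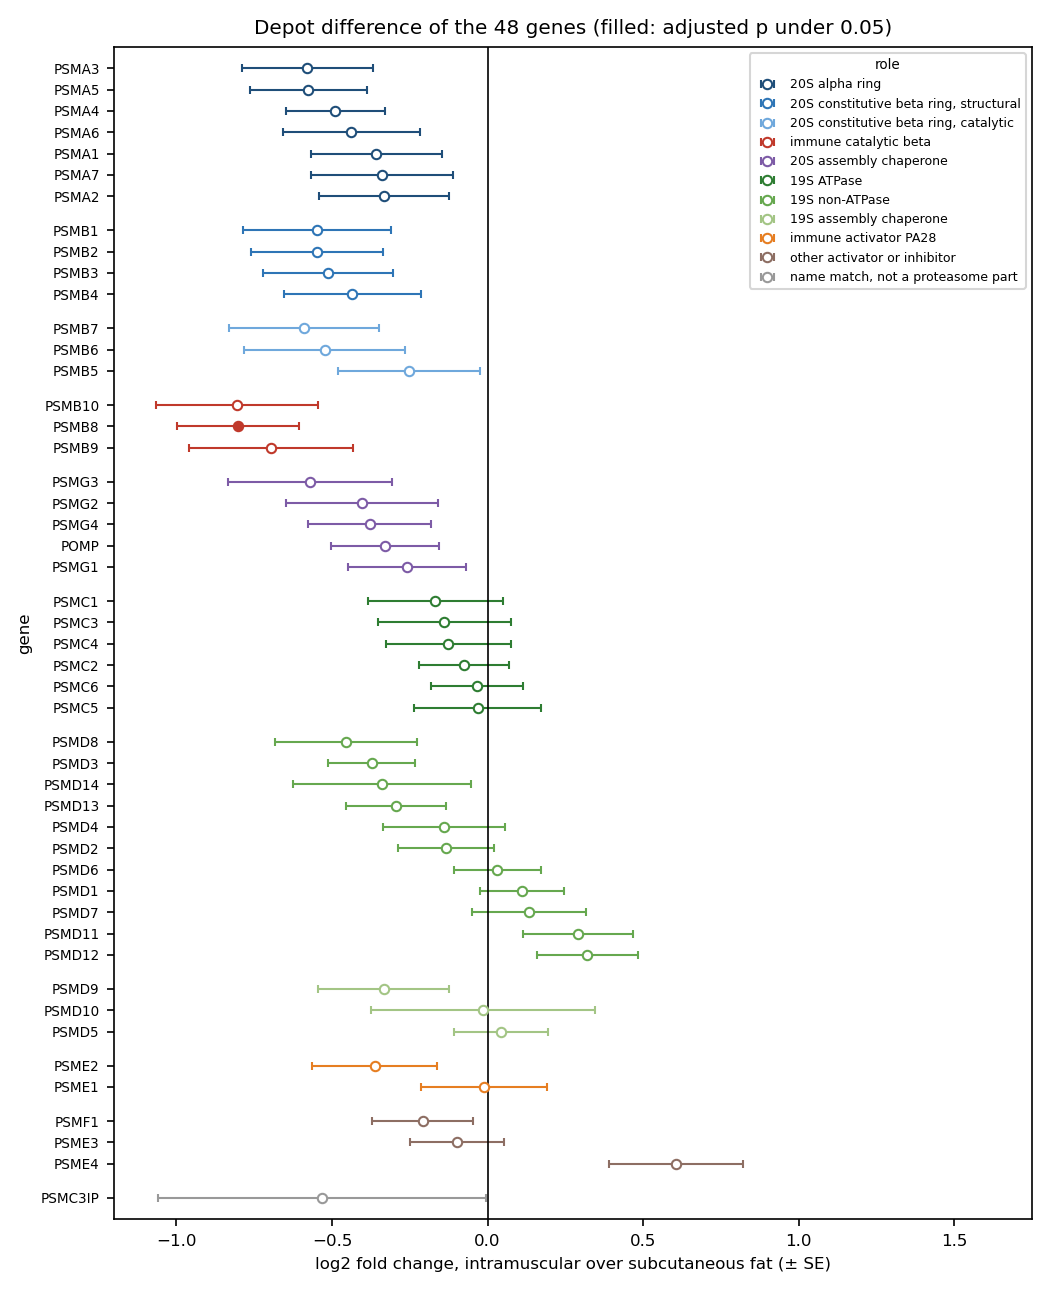
Log2 fold change of intramuscular over subcutaneous fat (x axis, ± SE from edgeR, 5 libraries a depot) for each of the 48 genes (y axis), grouped and coloured by role; filled points have an adjusted p under 0.05. All 14 core subunits and the 3 immune catalytic subunits lie left of 0, the cap subunits lie on both sides, PSME4 lies farthest to the right, and PSMB8 is the only filled point.

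PSMB8, the immune subunit that takes the place of PSMB5, was the 1 gene of the set that passed edgeR's main test. In the deposited coordinates, whose genome build is not named, it spans chr23:7173038-7176410 in the MHC region, near PSMB9 at chr23:7186813-7193342. PSMB8 measured 45.8, 50.3, 36.8, 31.9 and 43.6 CPM across intramuscular replicates 1 to 5 and 59.8, 65.6, 94.9, 53.5 and 89.5 CPM across subcutaneous replicates 1 to 5. The depots did not overlap, with the highest intramuscular library (replicate 2) just under the lowest subcutaneous one (replicate 4), and replicates 3 and 5 stood highest in subcutaneous fat. Of all genes, 12.9% had no overlap between depots (5.04% lower and 7.85% higher in intramuscular fat). The means were 41.7 ± 7.32 and 72.7 ± 18.5 CPM (SD, n = 5 each), a log2 fold change of -0.80 ± 0.20 (SE, edgeR adjusted p = 0.021). PSMB8 was lower in intramuscular fat in 5 of 5 animals. Without subcutaneous replicates 3 and 5 the log2 fold change was -0.52 and the edgeR adjusted p 0.0946, and the depots still did not overlap. The call was also lost without intramuscular replicate 3 (edgeR adjusted p = 0.0652) or without subcutaneous replicate 3 alone (0.0524), without intramuscular replicates 1 and 3 together (0.123), and with the striated muscle share as a covariate (0.747).

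PSMB10, the immune counterpart of PSMB7, measured 41.00, 32.7, 32.4, 43.4 and 41.7 CPM in intramuscular and 58.9, 47.8, 72.6, 38.5 and 117 CPM in subcutaneous replicates 1 to 5. Subcutaneous replicate 5 was far above the rest, and subcutaneous replicate 4 lay among the intramuscular libraries. Its log2 fold change was -0.81 ± 0.26 (SE, edgeR adjusted p = 0.0597), and -0.34 without subcutaneous replicates 3 and 5. PSMB9, the counterpart of PSMB6, measured 10.95, 11.2, 10.8, 9.90 and 14.9 CPM in intramuscular and 15.2, 16.1, 19.5, 11.5 and 31.5 CPM in subcutaneous replicates. It was the scarcest of the catalytic subunits, again highest in subcutaneous replicate 5, with an overlap between depots. Its log2 fold change was -0.70 ± 0.26 (SE, edgeR adjusted p = 0.0962), with the intramuscular library lower in 5 of 5 animals. The median of the 3 immune subunits moved from -0.80 to -0.34 without subcutaneous replicates 3 and 5.

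PSME1 and PSME2 form PA28, the interferon-induced cap that opens the core without ATP. PSME1 measured 74.8, 71.9, 59.2, 59.2 and 70.3 CPM in intramuscular and 60.8, 60.8, 72.9, 43.1 and 100.2 CPM in subcutaneous replicates. PSME2 measured 49.5, 33.5, 38.95, 46.2 and 42.9 CPM and 43.4, 45.8, 62.5, 41.5 and 78.2 CPM. Both genes overlapped between depots and had their highest value in subcutaneous replicate 5. The log2 fold changes were -0.01 ± 0.20 for PSME1 (SE, edgeR adjusted p = 0.978) and -0.36 ± 0.20 for PSME2 (edgeR adjusted p = 0.236), so neither passed the test, and the sign for PSME1 turned in several settings. PSME1 and PSME2 are annotated on opposite strands with 9680 shared bases, and with the strand setting of the counting not named, the counts of these 2 genes are uncertain.

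None of the constitutive catalytic subunits passed the test (by edgeR 1 of 3 was lower and 0 higher at an unadjusted p under 0.05, DESeq2 0). PSMB5, the chymotrypsin-like subunit, measured 138, 92.3, 116, 127 and 120.0 CPM in intramuscular and 92.9, 100.1, 196, 122 and 196 CPM in subcutaneous replicates. PSMB6, the caspase-like subunit, measured 100.2, 75.7, 79.2, 99.1 and 85.1 CPM and 74.1, 73.5, 159.7, 127 and 197 CPM. PSMB7, the trypsin-like subunit, measured 82.9, 72.4, 84.4, 103 and 98.5 CPM and 88.8, 88.3, 160.2, 115 and 213 CPM. For all 3, subcutaneous replicates 3 and 5 were the highest of the 10 libraries and subcutaneous replicates 1 and 2 lay within or near the intramuscular range. The log2 fold changes were -0.25 ± 0.23 for PSMB5, -0.52 ± 0.26 for PSMB6 and -0.59 ± 0.24 for PSMB7 (SE), with edgeR adjusted p of 0.478, 0.19 and 0.118. Without subcutaneous replicates 3 and 5, that of PSMB5 turned to 0.18.

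**Figure D2:**
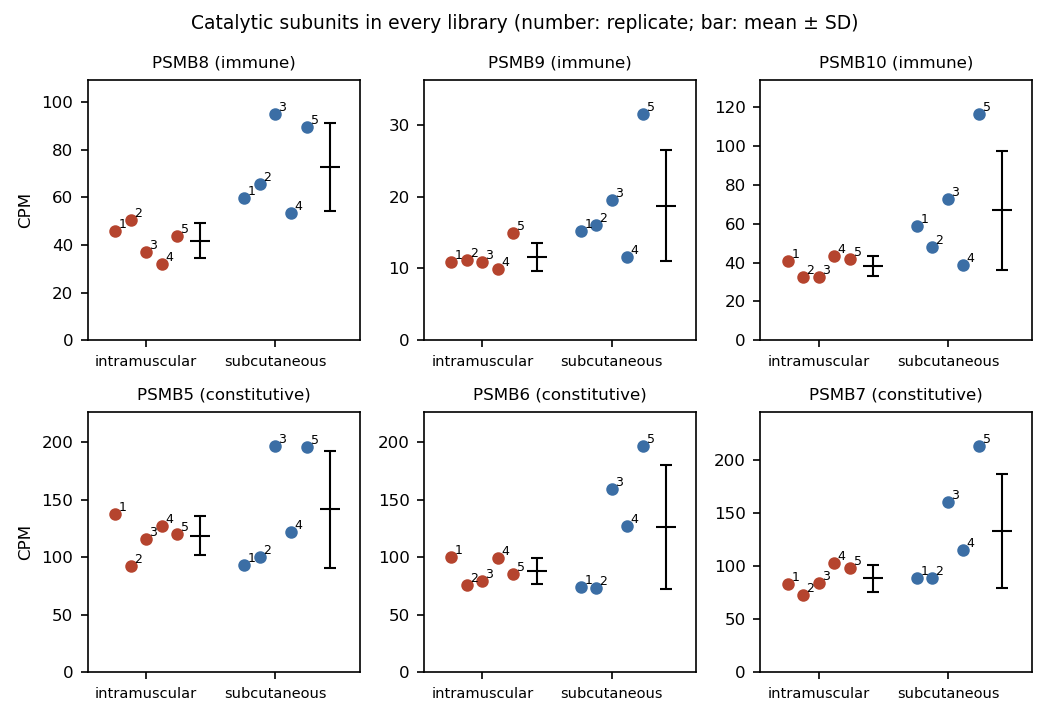
CPM (y axis, from 0) of the 3 immune catalytic subunits (top) and the constitutive subunits they replace (bottom) in each library, by depot (x axis); each point carries its replicate number, and the bar beside each depot is the mean ± SD of 5 libraries. PSMB8 does not overlap between depots, and subcutaneous replicates 3 and 5 lie highest among subcutaneous libraries in all 6 panels.

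Each immune subunit was then set against the constitutive subunit it replaces in the same library, as a ratio of CPM per kilobase of gene model. PSMB8 stood at 65.4, 107, 62.4, 49.3 and 71.5% of PSMB5 across intramuscular replicates 1 to 5 and at 127, 129, 95.1, 86.3 and 89.9% across subcutaneous ones. Intramuscular replicate 2 was the only intramuscular library inside the subcutaneous range. The mean log2 ratio was 0.59 lower in intramuscular fat (-0.54 ± 0.41 against 0.05 ± 0.28, SD, n = 5 each, lower in 5 of 5 animals, two-sided exact permutation p = 0.0317, adjusted over 3 ratios 0.0952). Exact sign flips of the 5 pairs gave a p of 0.0625, which is the lowest possible with this number of pairs. Without the 2 subcutaneous libraries that stood apart the difference was -0.70. PSMB9 stood at 10.9% to 19.1% of PSMB6 in intramuscular and 9.85% to 23.8% in subcutaneous libraries, a log2 difference of -0.20 (exact permutation p = 0.468, adjusted 0.468, n = 5 each). PSMB10 stood at 33.5% to 43.1% of PSMB7 in intramuscular and 29.3% to 57.8% in subcutaneous libraries, a log2 difference of -0.19 (exact permutation p = 0.302, adjusted 0.452, n = 5 each). None of the 3 ratios passed the threshold after adjustment, and the smallest p this permutation of 5 against 5 allows is 0.00794.

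Blood-derived cells carry the immunoproteasome, and some macrophage markers but no lymphocyte markers were called between the depots. Of 10 measured macrophage markers 4 were lower in intramuscular fat and none higher by edgeR, against 5.49% and 6.75% of all genes (5 and 0 at an unadjusted p under 0.05, DESeq2 4 and 0). They included C1QA, a chain of complement C1q, at 37.1 ± 7.03 CPM in intramuscular and 121 ± 55.6 CPM in subcutaneous fat (log2 fold change -1.70 ± 0.32, SE, edgeR adjusted p = 0.00539). The other C1q chains C1QB and C1QC and the scavenger receptor CD163 were the rest, at log2 fold changes of -1.48, -1.96 and -1.25, and CD163 lost its call when any of intramuscular replicates 1, 2 and 3 or subcutaneous replicates 2 and 5 was left out, as C1QB did without intramuscular replicate 3. None of the 4 was called without intramuscular replicates 1 and 3 together, or with the muscle share as a covariate (edgeR adjusted p of 0.682 to 0.859). These 2 fits called 0.531% and 0.016% of all genes lower. Without subcutaneous replicates 3 and 5, C1QA, C1QB and C1QC kept their calls, CD163 did not (-0.99, edgeR adjusted p = 0.0928), and 2 other markers passed. Summed macrophage markers were 0.0193% to 0.0370% of counts in intramuscular and 0.0168% to 0.0784% in subcutaneous libraries, and no marker was at 0 throughout a depot. Subcutaneous replicate 3, the highest library for PSMB8, was the lowest of all 10 for macrophage markers, and subcutaneous replicate 5 was the highest. Of 11 lymphocyte markers edgeR called none (0 at an unadjusted p under 0.05, DESeq2 0), and their sum was 0.00305% to 0.00549% of counts in intramuscular and 0.00217% to 0.00397% in subcutaneous libraries. The part of these cells in the immune subunits' values was not tested.

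Genes that act beside the immunoproteasome in antigen display did not pass the main test. Of 16 such genes edgeR called none (3 lower and 0 higher at an unadjusted p under 0.05, DESeq2 0), with a median of -0.23 against -0.04 for all genes. TAP1, the peptide transporter subunit, measured 42.3, 40.7, 45.2, 31.3 and 41.97 CPM in intramuscular and 61.2, 74.7, 52.6, 37.5 and 72.5 CPM in subcutaneous replicates (log2 fold change -0.57 ± 0.20, SE, edgeR adjusted p = 0.0731). It was lower in intramuscular fat in 5 of 5 animals, though the depots overlapped. TAP1 passed with the animal as a block, the 1 gene of the 16 to do so (log2 fold change -0.53, edgeR adjusted p = 0.0498), and without subcutaneous replicate 4 (0.0238). Its partner TAP2 had -0.51 (edgeR adjusted p = 0.13), the MHC class I regulator NLRC5 had -0.58 (0.155) and the class II invariant chain CD74 had -0.45 (0.171). B2M, the light chain of MHC class I, had -0.13 ± 0.18 (SE, edgeR adjusted p = 0.647).

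The alpha ring, which gates the entrance to the core, is made of PSMA1 to PSMA7. All 7 had negative log2 fold changes, with a median of -0.44, from -0.58 (PSMA3) to -0.33 (PSMA2). By edgeR none passed the test (3 lower and 0 higher at an unadjusted p under 0.05), while DESeq2 called PSMA4 and PSMA5 lower. PSMA5 had the smallest p of the ring, at 80.03, 80.9, 70.5, 93.5 and 90.2 CPM in intramuscular and 88.7, 97.8, 137, 122 and 174 CPM in subcutaneous replicates. The intramuscular library was lower in 5 of 5 animals, yet intramuscular replicates 4 and 5 lay above subcutaneous replicate 1. The log2 fold change was -0.58 ± 0.19 (SE, edgeR adjusted p = 0.0601), and -0.31 without subcutaneous replicates 3 and 5.

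The constitutive beta ring holds the protease sites. All 7 of its genes had negative log2 fold changes, with a median of -0.52, from -0.59 (PSMB7) to -0.25 (PSMB5), and none passed (4 lower and 0 higher at an unadjusted edgeR p under 0.05, DESeq2 0). PSMB2, a subunit without a protease site, had the smallest p of the ring. It measured 53.5, 57.2, 62.9, 81.3 and 79.5 CPM in intramuscular and 74.8, 63.2, 113, 107 and 131 CPM in subcutaneous replicates. Replicates 3, 4 and 5 of subcutaneous fat were above every intramuscular library, and replicates 1 and 2 were not. The log2 fold change was -0.55 ± 0.21 (SE, edgeR adjusted p = 0.105). With the animal as a block, edgeR called PSMB2 (adjusted p = 0.0465), PSMA3 (0.0495) and PSMB8 (0.0220) lower and none of the 48 higher, against 6.96% and 8.09% of all genes, so the block raised the count of lower genes from 1 to 3.

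Over both rings, the 14 core genes differed more among subcutaneous than among intramuscular libraries. Their median SD of log2 CPM was 0.18 in intramuscular and 0.48 in subcutaneous fat, wider in subcutaneous fat for 14 of 14. Over all genes tested it was 0.32 and 0.44, wider in subcutaneous fat for 8625 of 12521. The same held for 16 of the 17 cap subunits and 3 of the 3 immune catalytic subunits, so this was not particular to the core. Relative to the subcutaneous mean, the median of the 14 was -0.49, -0.62, -0.54, -0.23 and -0.34 across intramuscular replicates 1 to 5 and -0.51, -0.41, 0.37, 0.05 and 0.53 across subcutaneous ones. Subcutaneous replicates 1 and 2 were thus at the intramuscular level, and subcutaneous replicates 3 and 5 were the highest. Without these 2, the median log2 fold change of the core was -0.13, with 12 of 14 negative. In that fit 30 of the 48 genes were negative with none called, against 2.37% of all genes lower and 4.25% higher.

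**Figure D3:**
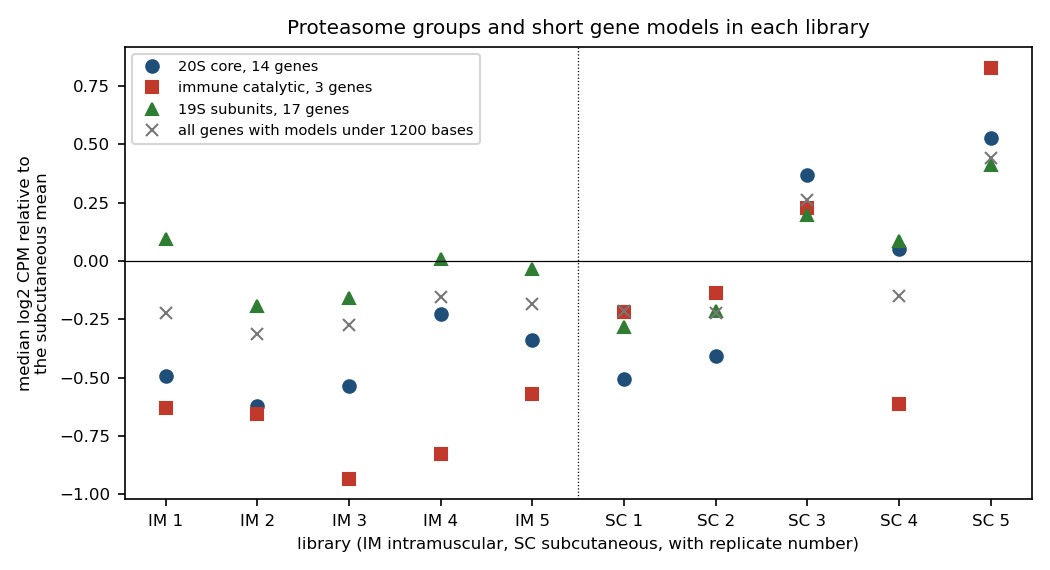
Median log2 CPM relative to the subcutaneous mean (y axis) of the 14 core genes, the 3 immune catalytic genes, the 17 cap genes and all genes with models under 1200 bases, in each of the 10 libraries (x axis, IM intramuscular, SC subcutaneous). All 4 sets are highest in subcutaneous replicates 3 and 5, and in subcutaneous replicates 1 and 2 the core lies at the intramuscular level.

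Gene length moved with the depot difference across all genes. The median log2 fold change was -0.30 for the 516 genes with models up to 800 bases, -0.32 from there to 1200 bases, -0.06 between 2000 and 3000 bases and 0.16 above 4000 bases. Core genes have short models of 810 to 2127 bases (median 1030), and cap genes longer ones of 1407 to 3161 bases (median 1936). When each library's trend with gene length was taken out, the core median was -0.22, still negative in 14 of 14, the immune median was -0.54 and the cap median 0.07. Of the 48 genes, PSMB8 was the 1 called in that fit too (log2 fold change -0.54, edgeR adjusted p = 0.0455). The fit called 5.69% of all genes lower and 7.25% higher.

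**Figure D4:**
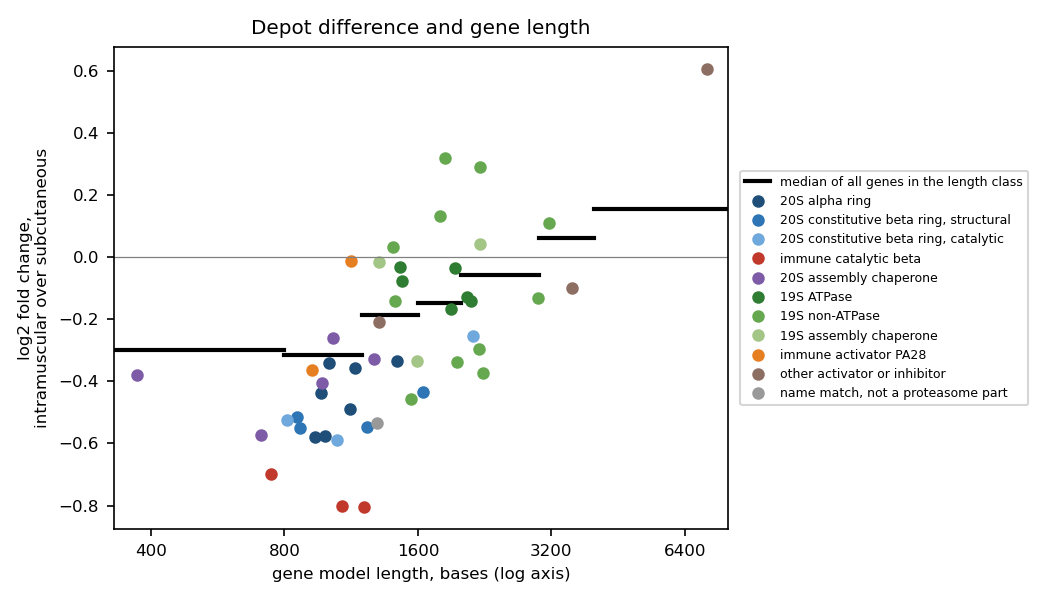
Log2 fold change of intramuscular over subcutaneous fat (y axis) against gene model length in bases (log x axis) for the 48 genes, coloured by role; black bars give the median of all tested genes in 7 length classes. The class medians go from -0.30 in the shortest class to 0.16 in the longest, and most core genes and the immune catalytic genes lie below the bar of their class.

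The core is put together by chaperones, PSMG1 to PSMG4 and POMP. All 5 had negative log2 fold changes (median -0.38, from -0.57 for PSMG3 to -0.26 for PSMG1) and none passed (1 lower and 0 higher at an unadjusted edgeR p under 0.05, DESeq2 0). POMP, which guides the assembly of the beta ring and is then degraded, measured 120.0, 112, 123, 129.9 and 111 CPM in intramuscular and 103, 133, 182, 141 and 188 CPM in subcutaneous replicates. Subcutaneous replicate 1 was the lowest of the 10 libraries and replicates 3 and 5 the highest, for a log2 fold change of -0.33 ± 0.17 (SE, edgeR adjusted p = 0.213). PSMG3, which helps to build the alpha ring, measured 15.7, 19.97, 15.6, 26.2 and 16.3 CPM in intramuscular and 14.7, 24.5, 41.6, 25.4 and 33.1 CPM in subcutaneous replicates. The depots overlapped widely, with subcutaneous replicate 1 the lowest of all, and the log2 fold change was -0.57 ± 0.26 (SE, edgeR adjusted p = 0.162).

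No cap subunit passed edgeR's test. Of the 6 ATPases PSMC1 to PSMC6, all had small negative log2 fold changes, from -0.17 (PSMC1) to -0.03 (PSMC5), the latter with a sign that turned in several settings, and none passed (0 at an unadjusted edgeR p under 0.05, DESeq2 0). PSMC1, the one with the smallest p, measured 202, 129, 144, 146 and 155 CPM in intramuscular and 151, 116, 219.9, 141 and 245 CPM in subcutaneous replicates. The lowest and the highest library were both subcutaneous, and the log2 fold change was -0.17 ± 0.22 (SE, edgeR adjusted p = 0.633). The 11 other cap subunits were split, 6 negative and 5 positive, from -0.46 (PSMD8) to 0.32 (PSMD12), and none passed by edgeR (1 lower and 0 higher at an unadjusted p under 0.05), while DESeq2 called PSMD3 lower. PSMD3, a scaffold subunit of the lid, measured 168, 158, 144, 169 and 192 CPM in intramuscular and 183, 209, 226, 226 and 232 CPM in subcutaneous replicates. It was lower in intramuscular fat in 5 of 5 animals, intramuscular replicate 5 lay above subcutaneous replicate 1, and the log2 fold change was -0.37 ± 0.14 (SE, edgeR adjusted p = 0.0939). Unlike the core median, that of the 17 cap genes turned positive without subcutaneous replicates 3 and 5 (0.13, with 5 of 17 negative).

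Cap assembly needs PSMD5, PSMD9 and PSMD10, whose log2 fold changes ran from -0.33 (PSMD9) to 0.04 (PSMD5), with none passing (0 at an unadjusted edgeR p under 0.05, DESeq2 0). PSMD9 measured 29.5, 19.6, 26.1, 30.2 and 19.8 CPM in intramuscular and 20.9, 27.5, 39.6, 36.01 and 33.7 CPM in subcutaneous replicates, overlapping, with a log2 fold change of -0.33 ± 0.21 (SE, edgeR adjusted p = 0.297). PSMD10 overlaps the autophagy gene ATG4A on the opposite strand, PSMD13 lies within the span of NBAS on the same strand, and in all 8 of the 48 genes overlap another listed gene, so their counts are uncertain. PSMC3IP, which is no proteasome part, measured 3.28, 2.35, 0.585, 2.85 and 2.77 CPM in intramuscular and 1.94, 1.69, 5.65, 2.11 and 5.72 CPM in subcutaneous replicates. It had the lowest level of the 48 genes, and its log2 fold change was -0.53 ± 0.53 (SE, edgeR adjusted p = 0.522).

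PSME4, which encodes the large nuclear activator PA200, had the one sizeable positive value. It measured 123, 94.1, 125, 67.1 and 68.5 CPM in intramuscular and 51.05, 59.1, 83.1, 66.6 and 54.4 CPM in subcutaneous replicates. Intramuscular replicates 1, 2 and 3 were above every subcutaneous library, and replicates 4 and 5 lay among them. The means were 95.7 ± 28.4 and 62.8 ± 12.7 CPM (SD, n = 5 each), a log2 fold change of 0.61 ± 0.22 (SE, edgeR adjusted p = 0.0804, higher in 5 of 5 animals), which did not pass, while DESeq2 called it (adjusted p = 0.0482). The striated muscle share was 0.376, 0.120, 0.195, 0.0758 and 0.0903% of counts in intramuscular replicates 1 to 5, so that replicates 4 and 5 were lowest in both. Without intramuscular replicates 1 and 3 the PSME4 log2 fold change was 0.28, and with the muscle share as a covariate it was -0.23. PSME4 has the longest gene model of the 48 (7169 bases), and with the length offset its log2 fold change was 0.33 (edgeR adjusted p = 0.345). Since the share does not overlap between depots, the share and the depot cannot be told apart. PSMF1, the inhibitor PI31, and PSME3, the nuclear activator PA28 gamma, had -0.21 and -0.10 (edgeR adjusted p = 0.407 and 0.694).

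**Figure D5:**
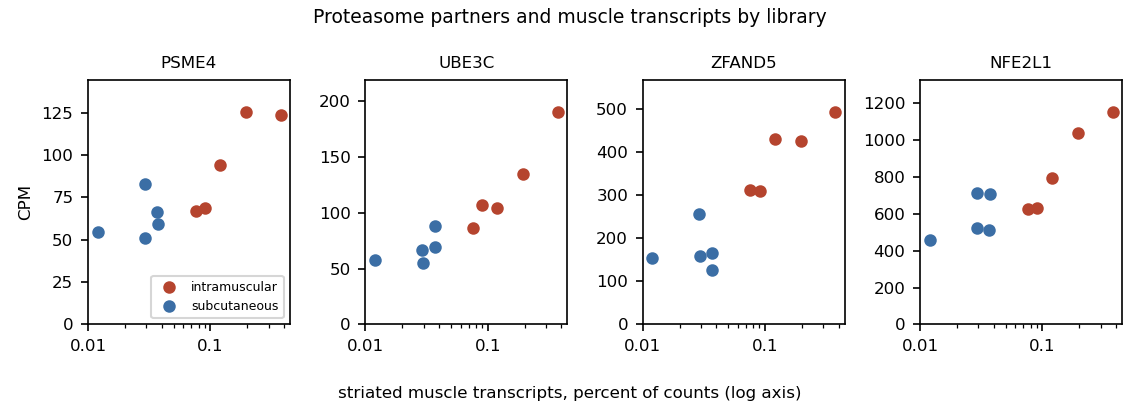
CPM (y axis, from 0) of PSME4, UBE3C, ZFAND5 and NFE2L1 against the share of counts from striated muscle transcripts (log x axis, percent) in the 5 intramuscular and 5 subcutaneous libraries. The intramuscular libraries, at 0.0758% to 0.376%, lie to the right of all subcutaneous ones, at 0.0120% to 0.0370%, and the 2 intramuscular libraries with the smallest share have the lowest intramuscular PSME4 and NFE2L1.

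Partners that bind the proteasome outside the symbol rule were measured too. Of 13 such genes 2 were higher in intramuscular fat and none lower by edgeR (4 and 1 at an unadjusted p under 0.05, DESeq2 4 and 0), with a median of 0.14. Of all genes, edgeR called 6.75% higher and 5.49% lower (14.5% and 16.2% at an unadjusted p under 0.05, DESeq2 10.8% and 9.24%). ZFAND5, a zinc-finger protein that stimulates the proteasome, measured 492, 429.9, 425, 312 and 310.2 CPM in intramuscular and 255, 166, 158, 127 and 154 CPM in subcutaneous replicates. The depots did not overlap, and the log2 fold change was 1.20 ± 0.21 (SE, edgeR adjusted p = 0.00422), 1.03 without intramuscular replicates 1 and 3 and 1.11 without subcutaneous replicates 3 and 5. With the muscle share as a covariate ZFAND5 no longer passed (log2 fold change 0.69, edgeR adjusted p = 0.720). UBE3C, a ubiquitin ligase of the proteasome, measured 190.5, 105, 135, 86.6 and 107 CPM in intramuscular and 66.6, 69.5, 55.1, 88.3 and 57.7 CPM in subcutaneous replicates. Intramuscular replicate 1, with the largest muscle share, was the highest, intramuscular replicate 4 lay below subcutaneous replicate 4, and the log2 fold change was 0.88 ± 0.22 (SE, edgeR adjusted p = 0.0214). Its call was lost without intramuscular replicate 3 (edgeR adjusted p = 0.0630), without subcutaneous replicate 3 (0.0536), without subcutaneous replicates 3 and 5 (0.103) and without intramuscular replicates 1 and 3 (log2 fold change 0.56, adjusted p = 0.152), and its sign turned with the muscle share as a covariate. The ligase TRIP12 had 0.39 ± 0.12 (SE, edgeR adjusted p = 0.0524) with no overlap between depots, and AKIRIN2, which brings proteasomes into the nucleus, had 0.49 ± 0.17 (edgeR adjusted p = 0.081). TRIP12 was at 0.16 with the length offset (edgeR adjusted p = 0.499) and passed with upper-quartile scaling (0.0439) and with DESeq2 (0.00416). AKIRIN2 passed with DESeq2 (adjusted p = 0.0484), with the length offset (0.0425) and without subcutaneous replicate 4 (0.0374).

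NFE2L1, the factor that drives proteasome genes when degradation falls short, measured 1154, 797, 1038, 626 and 634 CPM in intramuscular and 525, 709.6, 713, 513 and 456 CPM in subcutaneous replicates. Intramuscular replicates 1, 2 and 3 were above every subcutaneous library, and the log2 fold change was 0.54 ± 0.22 (SE, edgeR adjusted p = 0.122, higher in 5 of 5 animals). The NFE2L1 log2 fold change was 0.23 without intramuscular replicates 1 and 3 (edgeR adjusted p = 0.568) and 0.34 with the length offset (0.305). With the muscle share as a covariate it was -0.38 (0.852). Of 6 measured genes for this factor, its relatives and its processing, edgeR called none (3 higher and 0 lower at an unadjusted p under 0.05, DESeq2 0), and the median was 0.42. The small MAF partners MAFK and MAFG had 0.76 and 0.66 (edgeR adjusted p = 0.0983 and 0.118), and NGLY1, the glycanase that frees NFE2L1 for use, had 0.29 (0.224).

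Among 14 genes that supply ubiquitin or carry tagged proteins to the proteasome, 1 was higher in intramuscular fat and none lower by edgeR (4 and 1 at an unadjusted p under 0.05, DESeq2 2 and 1), with a median of 0.11. Of all genes, edgeR called 6.75% higher and 5.49% lower. RAD23B, a shuttle that docks on the cap, measured 351, 226, 278, 226 and 224 CPM in intramuscular and 147, 154, 136, 191 and 150.3 CPM in subcutaneous replicates. The depots did not overlap, and the log2 fold change was 0.74 ± 0.17 (SE, edgeR adjusted p = 0.016), lost without intramuscular replicate 3 (0.0538), without intramuscular replicates 1 and 3 (0.122) and without subcutaneous replicates 3 and 5 (0.0679). With the muscle share as a covariate the log2 fold change of RAD23B was 0.19 (edgeR adjusted p = 0.938). The ubiquilin shuttles UBQLN2 and UBQLN1 had 1.06 and 0.64 (edgeR adjusted p = 0.0512 and 0.1), and UFD1, a cofactor of the unfoldase VCP, had -0.60 (0.0655). UBQLN2 passed with the animal as a block (edgeR adjusted p = 0.0386), with RLE scaling (0.0490), with the length offset (0.0491), with limma voom (0.0390) and with DESeq2 (0.0131), but not without subcutaneous replicates 3 and 5 (log2 fold change 0.69, edgeR adjusted p = 0.134) or without intramuscular replicates 1 and 3 (0.287). It also passed without intramuscular replicate 4, subcutaneous replicate 2 or subcutaneous replicate 4, and its sign turned with the muscle share as a covariate. UBQLN1 passed without subcutaneous replicate 4 (edgeR adjusted p = 0.0251). UFD1 passed with DESeq2 (adjusted p = 0.0419) and without subcutaneous replicate 1 (0.0276), and was at -0.27 without subcutaneous replicates 3 and 5.

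Per kilobase of gene model, the most abundant proteasome transcripts were 2 core subunits. PSMA7 led in intramuscular fat at 156 CPM per kb, followed by PSMB1 at 154, and in subcutaneous fat PSMB1 led at 225 CPM per kb, followed by PSMA7 at 197. The first and second places differed by less than the spread between libraries in both depots. PSMB8 stood at 38.5 CPM per kb in intramuscular and 67.2 in subcutaneous fat, beside PSMB5 at 55.8 and 66.5. PSMB10 stood at 31.7 and 55.4 beside PSMB7 at 83.9 and 126. PSMB9 was far below PSMB6, at 15.5 and 25.2 against 108 and 156. The lowest levels among the 47 proteasome parts were those of PSMD10 (6.70 and 6.78 CPM per kb) and PSME4 (13.4 and 8.76).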

How the data were processed

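Both depots of the same 5 heifers were sequenced (fragmented total RNA, random hexamers, dUTP second strand, paired ends, per the labels' protocols). The submitters' processing notes name Trimmomatic 0.39, STAR 2.7.11a, DESeq2 1.42.0 and featureCounts 2.0.2. Not given in the sources used here are genome build, annotation release and strand setting. The authors deposited raw counts per gene and library, which were used as they stand, with the length of each gene model. Their table also holds deposited mean signals per depot and a base mean, and a deposited log2 fold change, p-value and adjusted p-value. In the authors' deposited table, of the 48 genes 5 were lower and 1 was higher, the same as by DESeq2 here, against 9.24% and 10.8% of genes.

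The main test was edgeR 4.0.16's two-sided quasi-likelihood test in R 4.3.3 (TMM scaling, filterByExpr, no block, Benjamini-Hochberg adjustment at 0.05) over all genes, of which 12521 were kept and 153 removed. It was tested on simulated counts without animal pairs or a length shift between libraries, and the outcome is not given here. SE is the log2 fold change over the root of F. Log2 CPM used a prior count of 2, and ratios added 0.5 counts. Alternatives were RLE and upper-quartile scaling, no filter, DESeq2 1.42.0, limma 3.58.1 voom, a replicate block, each library left out, intramuscular replicates 1 and 3 left out and the muscle share as a covariate. Leaving out subcutaneous replicates 3 and 5 and a gene length offset (a loess of each library on length, span 0.5) were chosen after seeing the data. Same-numbered libraries were treated as pairs, since the design text names the same 5 heifers, and deviations of same-numbered libraries correlated at 0.102, 0.181, 0.176, 0.161 and 0.237 across genes.

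The 48 genes and all lists were chosen with earlier results of these data known. Given in full are called genes, the immune subunits and their counterparts, PA28, POMP and the smallest p of each role. Other genes of a role are given by range, and up to 4 genes of smallest p per list are named, with NFE2L1, TAP1, B2M and IRF1. One other item is withheld and not reported here.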

Additional observations from a re-analysis of the deposited data

Results flagged for a closer look

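In 2 of the 96 sets of 5 libraries tested for the 48 genes, 1 library lay far from the other 4, where chance, at 1 in 20, gives about 4.8. PSMB9, the immune beta subunit, measured 14.9 CPM in intramuscular replicate 5, against 9.90 to 11.2 CPM in the other 4 intramuscular libraries. PSMD12, a cap subunit, measured 78.4 CPM in subcutaneous replicate 4, against 46.0 to 53.3 CPM in the other 4 subcutaneous libraries. Without that library PSMD12 was higher in intramuscular fat (log2 fold change 0.47, edgeR adjusted p = 0.0421), against 0.32 and 0.196 with it. The library was flagged by its PSMD12 value, so this call is no independent test. The same fit called 6.35% of all genes higher.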

How the results depend on the processing

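The count of lower genes among the 48 was 1 with edgeR, 5 with DESeq2 (PSMA4, PSMA5, PSMB8, PSMB10, PSMD3) and 3 with the replicate block. It was 0 without intramuscular replicates 1 and 3, with the muscle share as a covariate, or without subcutaneous replicates 3 and 5, the last chosen after seeing the data. Of all genes, these settings called 5.49%, 9.24%, 6.96%, 0.531%, 0.016% and 2.37% lower, in that order. Leaving out 1 library gave 0 to 5: 0 without intramuscular replicate 3 or subcutaneous replicate 3, 5 without subcutaneous replicate 1 (PSMA3, PSMA4, PSMA5, PSMB8, PSMG3) and 2 without subcutaneous replicate 4 (PSMB8, PSMB10). These fits called 2.09%, 2.86%, 7.04% and 5.23% of all genes lower, in that order. The count of higher genes was 0, 1 with DESeq2 (PSME4), and 0 to 1 when 1 library was left out (PSMD12 without subcutaneous replicate 4). Of all genes, the main fit called 6.75% higher, DESeq2 10.8% and the fit without subcutaneous replicate 4 6.35%. The other scalings, no filter, limma voom and the gene length offset (chosen after seeing the data) left 1 lower and 0 higher. These fits called 4.74% to 5.69% of all genes lower and 6.85% to 7.37% higher. Among the named genes the replicate block added the calls of PSMA3, PSMB2, TAP1, ISG15 and UBQLN2 and changed no other. Leaving out 1 library moved the log2 ratio of PSMB8 to PSMB5 between -0.75 and -0.47 (exact permutation adjusted p 0.0238 to 0.190, below the threshold without intramuscular replicate 2). That replicate was the only intramuscular library inside the subcutaneous range of this ratio. Leaving it out separated the depots fully, so this pass is no independent test.

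Signs of named genes turned mainly with the muscle share as a covariate, a fit whose covariate does not overlap between depots: CD163 0.51, CD74 0.19, CIDEC 0.39, IRF1 0.46, IRF9 0.0108, NFE2L1 -0.38, NGLY1 -0.0687, NKG7 0.22, PPARG 0.00613, PSMA2 0.18, PSMA3 0.12, PSMB10 0.0152, PSMB2 0.17, PSMB5 0.0218, PSMB7 0.17, PSMB9 0.10, PSMC3IP 0.22, PSMC5 0.28, PSMD5 -0.12, PSME1 0.38, PSME4 -0.23, PSMG1 0.15, PSMG3 0.00286, UBE3C -0.0818 and UBQLN2 -0.47. The cause was not tested. No gene of the 48 passed in that fit, against 0.016% of all genes lower and 0.343% higher. Without subcutaneous replicates 3 and 5 the signs of PSMB5 (0.18), PSMC1 (0.19), PSMC3IP (0.30), PSMC5 (0.31) and PSME1 (0.29) turned. With the length offset those of B2M (0.0554), PSMC5 (0.17), PSME1 (0.25), PSMF1 (0.00465) and PSMG1 (0.00524) did. PSMC5 was 0.0188 and PSME1 0.0369 with limma voom, and 0.0174 and 0.0370 with the replicate block. PSME1 was 0.0202 with upper-quartile scaling and 0.000348 with DESeq2, and PSMD5 was -0.0531 without intramuscular replicates 1 and 3. Leaving out 1 library moved PSMC5 from -0.14 to 0.15, PSMD5 from -0.0207 to 0.11 and PSME1 from -0.14 to 0.17. With 5 libraries a depot and an SE near 0.2, differences of the size of the core median could pass in some settings and not in others.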

Other observations

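Some neighbouring gene groups were measured beside the proteasome. Of 15 genes of interferon signalling, which induces the immune subunits, edgeR called none (0 higher and 4 lower at an unadjusted p under 0.05, DESeq2 0 higher and 1 lower) and the median was -0.09 on the log2 scale. The ubiquitin-like modifier ISG15 measured 4.09 ± 1.76 CPM in intramuscular and 9.09 ± 5.17 CPM in subcutaneous fat (SD, n = 5 each), the antiviral GTPase MX1 31.9 ± 6.29 and 50.3 ± 19.8 CPM, and IRF9 34.2 ± 6.18 and 54.1 ± 17.03 CPM. IFI35 had a log2 fold change of -0.49 ± 0.21 (SE, edgeR adjusted p = 0.138). With the animal as a block ISG15 alone of the 15 passed (log2 fold change -1.12, edgeR adjusted p = 0.0427), and it was at -0.52 without subcutaneous replicates 3 and 5. IRF9 passed with DESeq2 (adjusted p = 0.0463), and IRF9 (edgeR adjusted p = 0.0214) and MX1 (0.0444) passed without subcutaneous replicate 4. The transcription factor IRF1, a known driver of PSMB9, had -0.47 ± 0.24 (SE, edgeR adjusted p = 0.21, lower in 5 of 5 animals).

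Ubiquitin ligases of muscle were higher in intramuscular fat in 3 of the 3 with values, out of 10 listed, against 6.75% of all genes by edgeR. FBXO32, the muscle atrophy ligase atrogin-1, measured 37.2, 9.76, 31.4, 8.61 and 6.22 CPM in intramuscular and 1.10, 1.10, 1.99, 0.352 and 0.612 CPM in subcutaneous replicates 1 to 5 (log2 fold change 4.16 ± 0.61, SE, edgeR adjusted p = 0.00121). FBXO30 measured 12.6 ± 3.33 and 4.69 ± 1.20 CPM (log2 fold change 1.43 ± 0.27, SE, edgeR adjusted p = 0.00561), and TRIM55 4.28 ± 3.93 and 0.0117 ± 0.0263 CPM. FBXO32 was highest in the intramuscular libraries with the largest muscle share, replicates 1 and 3. With that share as a covariate none of the 3 ligases passed, in a fit that called 0.343% of all genes higher. Markers of other cell types also differed: 4 of 12 endothelial markers (ROBO4, CLDN5, EGFL7, ESAM), 2 of 13 adipocyte markers (CFD, FABP4) and 3 of 10 progenitor markers (CLEC3B, CD248, CD34) were lower in intramuscular fat and none of these 35 was higher by edgeR (1 at an unadjusted p under 0.05, DESeq2 0). Of all genes, edgeR called 5.49% lower and 6.75% higher. In the same order of lists, DESeq2 called 5, 5 and 3 lower, the replicate block 4, 5 and 3, and 6, 7 and 5 had an unadjusted edgeR p under 0.05. With the muscle share as a covariate none of the 35 passed, against 0.016% of all genes lower and 0.343% higher. Without subcutaneous replicates 3 and 5 the edgeR counts were 2, 1 and 3, and without intramuscular replicates 1 and 3 they were 1, 0 and 2. These 2 fits called 2.37% and 0.531% of all genes lower. ESAM lost its call when any of 6 single libraries was left out. The part of these cell types in the proteasome values was not tested.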
